A study of Homo sapiens with 6 samples.

Results

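Heterochromatin writers and readers are the enzymes and binding proteins that build and hold silent chromatin. The 10 genes described here are SUV39H2, SETDB1, EHMT1, EHMT2, CBX1, CBX3, CBX5, TRIM28, DAXX and KMT5B. A chromatin region belonged to them as a promoter region if it lay within 2 kb of a start site of one of their protein-coding transcripts in GENCODE 44. It belonged to them as a distal region if it was no promoter region and the protein-coding start site nearest to its middle, within 100 kb, was theirs. By this rule the 10 genes held 39 of the 108542 open regions of the table, of which 18 were promoter regions and 21 distal regions. Of all regions, 20094 were promoter regions and 88448 were distal, and there were 19676 protein-coding genes.

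The regions come from ATAC-seq, in which the transposase Tn5 cuts accessible DNA in nuclei, of EndoC-βH3 cells. This human beta cell line derives from a fetal pancreas and was immortalised with hTERT and the SV40 large T antigen, and it carries a CreER recombinase that removes these transgenes when 4-hydroxy tamoxifen is given. Of the 6 libraries, each from 100000 cells, 3 were labelled senescent, after induction with 4-hydroxy tamoxifen over 3 weeks, and 3 were labelled non-senescent controls. All 6 carried the genotype label WT and came from a single line, so both groups share its origin and its CreER. The values below are the authors' mean signal, which is 1 number for each region over all 6 libraries. It holds no value for a single library, so neither the depth of a library nor a spread between replicates can be given, no test of the senescent against the non-senescent libraries was run, and no difference below carries one. A region open in 1 group alone cannot be told apart from one weakly open in both.

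In most cells heterochromatin rests on methylation of histone H3 at lysine 9. SUV39H2, SETDB1, EHMT1 and EHMT2 are methyltransferases that write this mark, on their own or, for EHMT1 and EHMT2, as a pair. The HP1 proteins, encoded by CBX1 (HP1 beta), CBX3 (HP1 gamma) and CBX5 (HP1 alpha), bind the mark and gather further writers. Among these is KMT5B, which methylates histone H4 at lysine 20. TRIM28 brings SETDB1 to targets of zinc finger repressors, and DAXX is the chaperone that, with ATRX, places the histone variant H3.3 in silent repeats.

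Every one of the 10 genes had an open promoter region, and 7 of them had exactly 1. Signal per kb of the strongest promoter region was highest at TRIM28, DAXX, CBX5 and SETDB1 and lowest at EHMT2, EHMT1 and KMT5B, with a range from 323 to 2004 per kb. EHMT1, the longest of the genes, had 6 promoter and 15 distal regions, and 1 of its distal regions was 9.69 times its strongest promoter region in mean signal. No distal region was found for 6 of the genes.

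The stretches below show the DNA at the start sites that lay in the strongest promoter region. They were taken from the RefSeq promoter table of GRCh38.p14, which held 8 of the 10 genes, all but TRIM28 and DAXX. Only bases upstream of the RefSeq start site and outside every annotated exon are printed, in the direction of the gene. CBX3 had no such base. Capitals mark exact matches to short words that are known to be bound by transcription factors.
SUV39H2, chr10:14878728-14878819, plus strand: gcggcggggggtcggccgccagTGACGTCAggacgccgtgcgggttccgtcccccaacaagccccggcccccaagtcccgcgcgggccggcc
SETDB1, chr1:150926013-150926262, plus strand: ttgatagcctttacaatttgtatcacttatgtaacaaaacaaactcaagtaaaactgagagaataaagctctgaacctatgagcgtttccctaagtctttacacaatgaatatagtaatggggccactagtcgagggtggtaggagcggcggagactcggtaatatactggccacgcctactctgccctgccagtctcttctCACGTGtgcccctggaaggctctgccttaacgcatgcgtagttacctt
EHMT1, chr9:137618907-137618991, plus strand: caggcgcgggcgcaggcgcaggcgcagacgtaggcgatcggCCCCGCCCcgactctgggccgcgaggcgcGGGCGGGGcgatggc
EHMT2, chr6:31897699-31897784, minus strand: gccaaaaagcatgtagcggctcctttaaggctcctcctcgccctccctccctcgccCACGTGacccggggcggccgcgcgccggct
CBX1, chr17:48101199-48101267, minus strand: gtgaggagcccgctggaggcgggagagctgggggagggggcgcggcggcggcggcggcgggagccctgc
CBX5, chr12:54280134-54280192, minus strand: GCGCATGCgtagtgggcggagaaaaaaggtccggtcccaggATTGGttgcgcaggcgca
KMT5B, chr11:68213853-68213898, minus strand: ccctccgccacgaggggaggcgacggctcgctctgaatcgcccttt

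Of these stretches, 4 lay between start sites that point away from each other. The CBX5 stretch separates CBX5 from HNRNPA1, which encodes a nuclear ribonucleoprotein that binds pre-mRNA, whose start site lay 71 bp away, and it held an NRF1 word and an NF-Y word on the reverse strand. The EHMT2 stretch separates EHMT2 from complement gene C2, 87 bp away, and held an E-box. The EHMT1 stretch separates EHMT1 from the lncRNA ARRDC1-AS1, 99 bp away, and held the SP word on both strands. The SUV39H2 stretch separates SUV39H2 from its divergent lncRNA SUV39H2-DT, 139 bp away, and held the CREB word. The SETDB1 stretch had the lowest GC content of those printed, 46.0%, and held an E-box, and the CBX1 stretch had the highest, 84.1%. The CBX1 stretch lies upstream of the RefSeq start site, chr17:48101186, but downstream of the canonical GENCODE start site, chr17:48101478. It is thus DNA inside the gene by that transcript. The CBX1 and KMT5B stretches held none of the words.

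The 3 HP1 genes had promoter regions above the gene median in mean signal, in the order CBX5, CBX3, CBX1, but per kb CBX3 fell below it. The CBX5 region (chr12:54279480-54281219, hg38) had a mean signal of 3231, which is 1857 per kb and the 97.7 percentile of the 15493 genes with a promoter region. It held 12 start sites of coding transcripts, those of HNRNPA1 included. The CBX3 region (chr7:26199890-26202362) was the widest of the 39, at 2473 bp, and had a mean signal of 1565. Because of that width it fell from the 79.8 percentile by mean signal to the 46.2 percentile by signal per kb, with 633 per kb. It too served a pair of genes, CBX3 and HNRNPA2B1, whose start sites lay 216 bp apart, and HNRNPA2B1 encodes a further nuclear ribonucleoprotein. The CBX1 region (chr17:48100666-48101891) had a mean signal of 1106, or 902 per kb, at the 63.3 and 64.6 percentiles. SNX11 lay on its other side, 1879 bp away, with its start site outside the region. By signal per kb CBX5 stood 2.06 times above CBX1 and 2.93 times above CBX3. The order of CBX3 and CBX1 thus turned with the measure, and without values for single libraries neighbours in these orders cannot be set against a spread.

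Among the lysine 9 writers, SETDB1 and SUV39H2 stood above EHMT1 and EHMT2. The SETDB1 region (chr1:150925169-150926682) had a mean signal of 2231 and 1474 per kb, the 86.2 percentile per kb. The SUV39H2 region (chr10:14877926-14879463) had 1517 and 986 per kb, the 69.0 percentile. EHMT2 (chr6:31897657-31898774) had 362 and 323 per kb, at the 22.3 percentile, and EHMT1 (chr9:137618069-137619028) had 321 and 334 per kb, at the 23.1 percentile. The partners EHMT1 and EHMT2 were thus 1.13-fold apart in mean signal, with EHMT2 the higher, and in the opposite order per kb. SETDB1 was 4.41 times EHMT1 per kb. The lysine 20 writer KMT5B (chr11:68213523-68214558) lay between, with 524 and 506 per kb, at the 36.4 percentile.

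The remaining genes, TRIM28 and DAXX, had strong promoter regions in less DNA than the median gene, whose strongest region was 1156 bp wide. TRIM28 (chr19:58543662-58544576) had a mean signal of 1834 in 915 bp, the highest of the 10 per kb with 2004, at the 94.2 percentile. DAXX (chr6:33322792-33323843) had 1969 in 1052 bp, or 1872 per kb, at the 92.9 percentile. By mean signal both ranked below CBX5 and SETDB1.

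**Figure D1:**
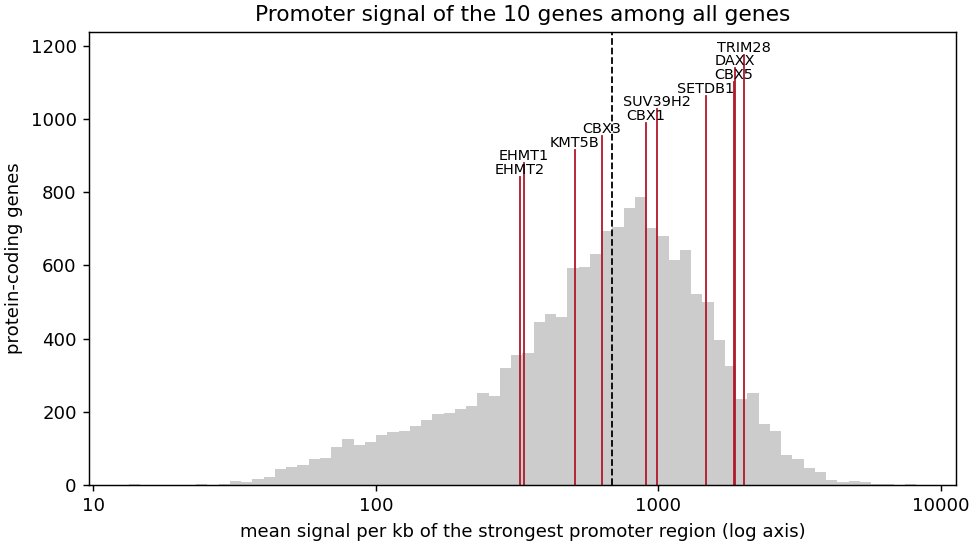
Histogram of the mean signal per kb of the strongest promoter region (log axis) of 15493 protein-coding genes, with the 10 genes as red lines and the median of all genes, 686 per kb, as a dashed line. EHMT1 and EHMT2 stand side by side at the left, and CBX5, DAXX and TRIM28 lie between 1857 and 2004 per kb at the right.

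Taken as a list, the 10 genes had a median mean signal of 1541 at the strongest promoter region, against 840 over all genes with a promoter region, and 7 of 10 were above that median. Per kb the medians were 944 and 686, and 6 of 10 were above. Over all 18 promoter regions of the 10 genes, the weak ones of EHMT1 and KMT5B included, the median mean signal was 443, below the 506 of all promoter regions. Over all coding genes 78.7% had a promoter region, against 10 of the 10 here. Over all genes, those whose strongest promoter region also serves another coding gene had a higher median mean signal at it than those whose region does not, 1182 against 736. The strongest region of 4 of the 10 genes, EHMT2, CBX1, CBX3 and CBX5, was of this kind, and so was that of 22.9% of all genes. The part of gene sharing in the levels of these genes was not tested.

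The ratio of observed to expected CpG in the strongest promoter region ranged from 0.64 at EHMT2 to 0.94 at CBX3, with a median of 0.84, against 0.75 over all genes. GC content ranged from 51.2% at SETDB1 to 74.5% at KMT5B, with a median of 64.3% against 62.9%. Over all 18 promoter regions the median CpG ratio was 0.76, with a range from 0.11 to 0.99, against 0.72 for all promoter regions, and the median GC content was 56.8%, below the 62.2% of all promoter regions. Over the table, the 403 genes whose strongest promoter region had at least 74% GC had a median of 307 per kb, below the 686 of all genes. Of the 10 genes KMT5B alone was past that limit, which was chosen after its value was seen.

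Of the 78 coding start sites of the 10 genes, 50 lay in a region, 64.1%, against 58.0% of all coding start sites. For the canonical transcript of each gene this was 9 of 10, against 66.8% of all. The exception was KMT5B, whose canonical start site at chr11:68213296 fell into a gap of 587 bp between a weak region with a mean signal of 92.9 (chr11:68212630-68212935) and the strongest one. The gap had a GC content of 80.1%, which 0.174% of all promoter regions reached. Of all genes with a promoter region, 15.1% had an uncovered canonical start site and 2.01% had one flanked by regions on both sides within 1 kb. At EHMT1 a similar gap of 367 bp, with 87.5% GC, followed the canonical start site, which lay just inside the end of the strongest region. Of the 20094 promoter regions 0 were as rich in GC. Both shares set a short gap against whole open regions, with a median width of 975 bp. Stretches of the same length or other gaps were not compared, so the shares do not say how rare such a GC content is. The part of GC content in these gaps was not tested.

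Not every promoter region sat on a start site. Of the 18 promoter regions, 12 held a coding start site of their gene and had a median mean signal of 1311, with a range from 92.9 to 3231. The other 6, of which 5 were at EHMT1 and 1 at KMT5B, lay within 2 kb of a coding start site and held none, with a median of 136 and a range from 23.1 to 236. Among these, the EHMT1 region chr9:137664354-137665040, with a mean signal of 151, held the start of an EHMT1 transcript with no defined coding sequence. Of all promoter regions, 71.4% held a coding start site, and the medians were 756 and 120. CBX5 had a second promoter region in an intron that held a start site (chr12:54259220-54260008), with a mean signal of 562 and a CpG ratio of 0.23.

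**Figure D2:**
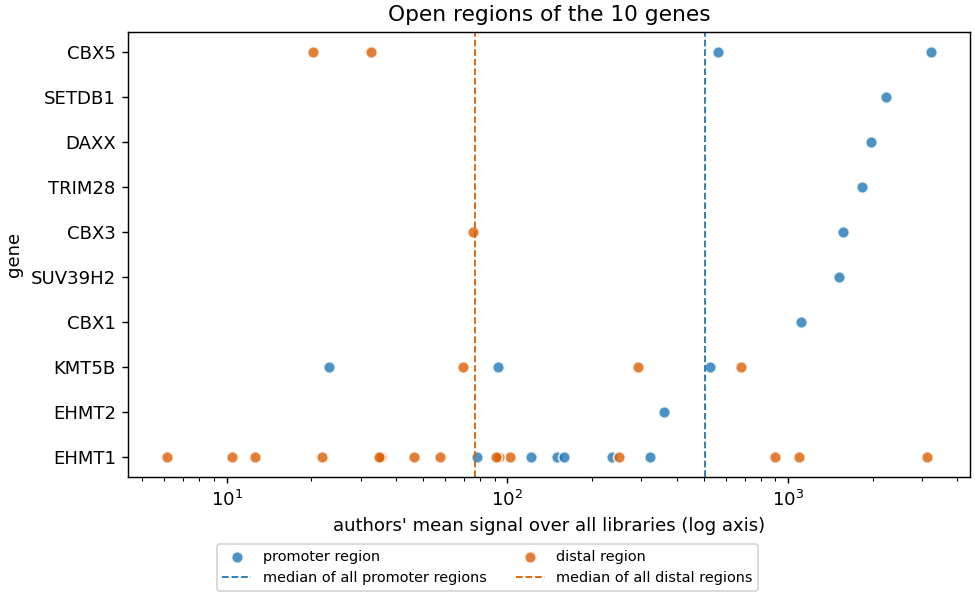
Mean signal (log axis) of all 39 regions by gene, with promoter regions in blue, distal regions in orange and dashed lines at the medians of all promoter regions, 506, and all distal regions, 76.8. Distal regions are seen at 4 genes, and the highest distal region of EHMT1, at 3110, lies above every promoter region but that of CBX5.

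Distal regions were few and unevenly spread over the genes. EHMT1 had 15, KMT5B 3, CBX5 2 and CBX3 1, while SUV39H2, SETDB1, EHMT2, CBX1, TRIM28 and DAXX had none, whereas 67.1% of all coding genes had at least 1. The 21 distal regions had a median mean signal of 69.7, against 76.8 over all distal regions, and 9 of 21 were above that median. Of the 21, 4 were past 462, the 90 percentile of all distal regions. Placed by the base at their middle and by coding transcripts, 17 of the 21 lay in an intron of the gene itself and 1, that of CBX3, was intergenic. A region placed in an intron can still overlap an exon, as the EHMT1 region chr9:137728488-137728896 did.

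EHMT1 spans 217.1 kb and ends 558.6 kb before the end of the long arm of chromosome 9, and few genes had as many regions. At least 6 promoter regions were found at 0.391% of coding genes and at least 15 distal regions at 2.29%. Among the 1297 genes with a span of 150 to 300 kb the median was 5 distal regions, and 9.71% had at least 15. At least 6 promoter regions were found at 1.46% of these genes. The 15 distal regions ran from 6.12 to 3110 in mean signal, with a median of 57.5, and the 3 strongest held 87.0% of their summed signal. The strongest region (chr9:137762367-137764163) lay 144.3 kb downstream of the start site, had a mean signal of 3110 over 1797 bp and stood at the 99.8 percentile of distal regions. The next was chr9:137745536-137746163, 126.8 kb downstream, with 1089. Both overlapped an exon annotated as 3′ UTR in some EHMT1 transcripts. The next (chr9:137682495-137683105), with 900, lay in an intron 63.8 kb downstream. These 3 exceeded the strongest promoter region of EHMT1, and per kb 4 distal regions did.

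**Figure D3:**
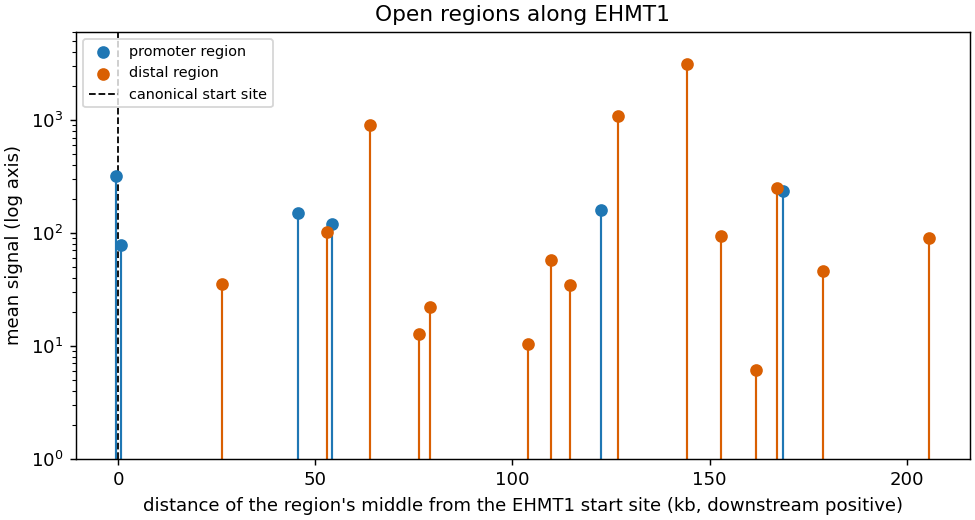
Mean signal (log axis) of the 21 regions of EHMT1 against the distance of each region's middle from the canonical start site in kb, with promoter regions in blue and distal regions in orange. The start site regions, at 321 and 78.2, are lower than the 3 tallest distal regions, which lie 63.8, 126.8 and 144.3 kb downstream.

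KMT5B was the other gene with a distal region above its promoter. Its region chr11:68168568-68169214, in an intron 44.4 kb downstream, had a mean signal of 676, and per kb it was 2.07 times the promoter region, against 5.18 times for the strongest distal region of EHMT1. A further intronic region of KMT5B (chr11:68209279-68209787), 3.76 kb downstream, had 291. A distal region above the strongest promoter region in mean signal was found at 28.1% of the 11004 genes with both kinds. Among those with at least 15 distal regions it was found at 54.3%. With the strongest region of each kind compared per kb, the shares were 37.2% and 69.1%. The strongest distal region of CBX3 (chr7:26232034-26232362) had a mean signal of 75.3 and that of CBX5 (chr12:54274093-54274309) had 32.6, both far below their promoters.

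The DNA of the strong and the weakest distal regions is set side by side here, since the weakest differed from the strong ones in plain sight. Each line gives 150 bases of the plus strand of hg38, and capitals mark a word. They are the bases outside annotated exons that lie nearest to the region's middle. For the region with a mean signal of 3110, which overlaps exons, they lie toward its lower end and not at its middle. The EHMT1 region with 1089 is not among the lines.
EHMT1, mean signal 3110, chr9:137762525-137762674: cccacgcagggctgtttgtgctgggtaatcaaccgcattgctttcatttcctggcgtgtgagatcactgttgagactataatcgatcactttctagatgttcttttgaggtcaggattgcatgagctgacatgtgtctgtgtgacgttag
EHMT1, mean signal 900, chr9:137682725-137682874: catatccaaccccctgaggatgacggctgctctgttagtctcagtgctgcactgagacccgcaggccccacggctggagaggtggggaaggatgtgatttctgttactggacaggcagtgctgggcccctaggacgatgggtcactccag
KMT5B, mean signal 676, chr11:68168816-68168965: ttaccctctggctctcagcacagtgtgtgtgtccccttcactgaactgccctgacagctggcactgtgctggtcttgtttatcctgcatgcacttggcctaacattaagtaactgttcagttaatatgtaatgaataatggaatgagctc
KMT5B, mean signal 291, chr11:68209458-68209607: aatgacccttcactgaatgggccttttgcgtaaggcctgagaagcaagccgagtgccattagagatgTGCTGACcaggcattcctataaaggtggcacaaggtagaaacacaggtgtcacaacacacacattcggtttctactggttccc
EHMT1, mean signal 10.4, chr9:137722868-137723017: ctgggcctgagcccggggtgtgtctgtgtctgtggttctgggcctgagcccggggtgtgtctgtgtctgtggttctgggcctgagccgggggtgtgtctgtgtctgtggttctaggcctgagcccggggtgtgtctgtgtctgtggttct
EHMT1, mean signal 6.12, chr9:137780611-137780760: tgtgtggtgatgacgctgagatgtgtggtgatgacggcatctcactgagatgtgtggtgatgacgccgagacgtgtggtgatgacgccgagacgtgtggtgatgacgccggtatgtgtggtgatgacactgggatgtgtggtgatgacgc

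The last 2 are tandem repeats. A region was counted as one if, in the 300 bases around its middle, at least 70% of bases matched the base a fixed number of positions before, for any shift from 10 to 100 bases. The region with a mean signal of 10.4 (chr9:137722795-137723091) matched at 81.4% of bases with a shift of 37, and that with 6.12 (chr9:137780526-137780845) at 72.8% with a shift of 21. Of all distal regions, 1.07% were repeats by this count, with a median mean signal of 34.6, against 76.8 over all distal regions. The next weakest distal region (chr9:137695131-137695431), with 12.6, matched at most at 33.2%, near the median of 33.3%. Whether reads in these repeats were placed uniquely was not tested.

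Words of transcription factors were looked for on both strands in the 300 bases at the middle of each strongest promoter region. They were TTTCGCGC or TTTGGCGC (E2F), GCGCATGC (NRF1), CCGGAAGT (ETS), CCAAT (NF-Y), GGGCGGGG (SP), AAGATGGC (YY1), TCTCGCGA (ZBTB33), TGACGTCA (CREB), CACGTG (E-box) and TGAGTCA (AP-1). Shares are given over all promoter regions, weak ones included, and then over the 13813 regions that are the strongest of some gene, as those of the 10 genes are. The NF-Y word was in 4 of the 10, SETDB1, CBX3, CBX5 and DAXX, against 24.2% and 24.8%. The CREB word was in 2, SUV39H2 and TRIM28, against 1.41% and 1.71%. SUV39H2 alone held the E2F word, against 1.11% and 1.36%, and the SP word, against 23.1% and 27.4%. CBX5 alone held the E-box, against 6.61% and 6.86%. The remaining 5 words, of NRF1, ETS, YY1, ZBTB33 and AP-1, were in 0 of these windows. Some words in the stretches printed above lay outside these windows and are not counted here. They are the E-boxes of SETDB1 and EHMT2, the NRF1 and NF-Y words of CBX5 and the SP words of EHMT1. The NF-Y word counted for CBX5 is thus another match than the one printed. In the distal regions of the 10 genes, the AP-1 word was in 3 of 21, all at EHMT1 and 1 of them in the region with a mean signal of 1089, against 6.68% of all distal regions. The MAF word TGCTGAC was in 3, against 7.16%, and the E-box in 3, against 4.95%. The FOX word TGTTTAC, the homeodomain word CTAATTA and the RFX word GTTGCCAT were in 0 of 21, against 9.43%, 3.69% and 1.55%. The CTCF words CAGGGGGC, TAGGGGGC, CAGGTGGC, TAGGTGGC, CAGATGGC and TAGATGGC were in 1, against 13.0%. No word in a window says only that these letters are not in it.

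All 30 further heterochromatin genes of a list of writers, chaperones, complexes and erasers had a promoter region, with a median mean signal of 1151, and 22 of the 30 were above the median of all genes. Per kb the median was 845, and 19 of 30 were above. The highest in mean signal were KMT5C, the other lysine 20 trimethylation enzyme, with 5217, SETDB2, a relative of SETDB1, with 3280, and LMNB1, the gene of lamin B1, with 3025. The SETDB2 region also serves the coding gene CAB39L. Per kb the order differed, with KDM4B highest at 4895 and UHRF1 lowest at 316. The lowest in mean signal were ATRX, the partner of DAXX, with 351, CDYL2, a chromodomain gene, with 384, and WIZ, with 411. WIZ joins the EHMT1 and EHMT2 complex. SUV39H1, the sister gene of SUV39H2, had a mean signal of 1111.

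The label of the cells was checked by marker genes. All 10 beta cell markers had a promoter region, with a median of 1543 per kb, and 8 of 10 were above the median of all genes. The other 2 were SLC30A8 with 541 and ABCC8 with 589 per kb. Of 9 markers of other pancreatic, blood, vessel and connective tissue cells, 6 had one, with a median of 157 per kb. PRSS1, CFTR and PTPRC had no promoter region, and GCG and SST had 140 and 171 per kb. CPA1 and KRT19 were the 2 above the median of all genes, with 1298 and 737 per kb. Distal regions did not separate the lists in the same way. At least 1 was found at 8 of the 10 beta cell markers and at 9 of the 9 others, with median counts of 12.5 and 3. PRSS1, CFTR and PTPRC had 2, 9 and 5 of them.

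**Figure D4:**
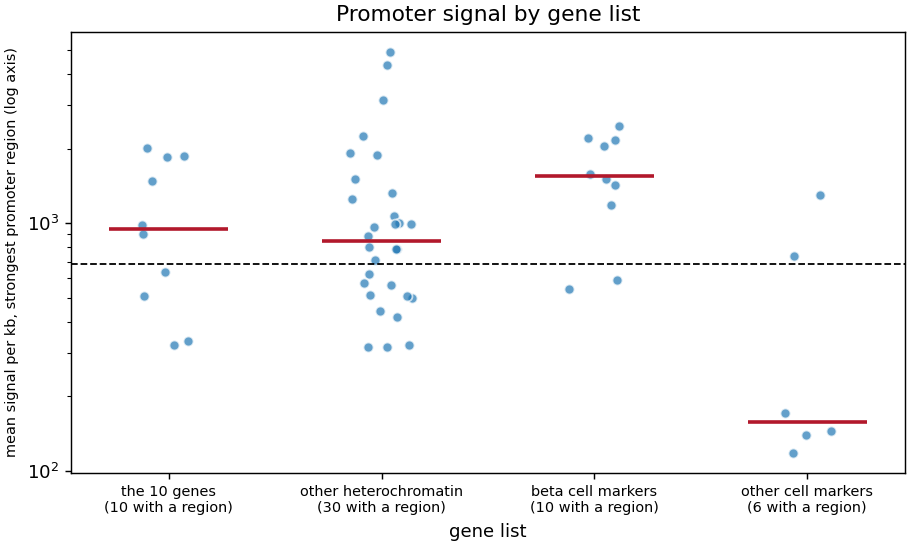
Mean signal per kb of the strongest promoter region (log axis) for genes with a promoter region in 4 lists, with red bars at each list's median and a dashed line at the median of all genes, 686. The medians are 944 for the 10 genes, 845 for other heterochromatin genes, 1543 for beta cell markers and 157 for markers of other cells.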

How the data were processed

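ATAC-seq libraries of 3 senescent and 3 non-senescent EndoC-βH3 samples were used, with groups taken from the labels. The authors used Trim Galore to trim the reads and Bowtie2 to align them to hg38, removed duplicates, shifted reads for the transposase offset, found peaks with MACS2 and counted reads under their union. The versions are not given in the sources used here. The deposited mean signal of a region is a mean of read counts over all 6, each count scaled by the authors with DESeq2, not divided by width or corrected for copy number. The deposited table also holds 5 columns of the authors' own comparison, namely the log2 fold change, its standard error, the Wald statistic, the p-value and the adjusted p-value, and these were not used. It has 0 columns of single libraries, so depth per library, replicate spread and counting intervals cannot be given, and no test of the groups was run on library values.

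Region starts were read as 0-based, as in BED files, and 1 was added. All 108542 regions lay within the chromosomes of the hg38 reference, and 0 of them overlapped a neighbour. They were assigned to genes of GENCODE 44 with Python 3.11.15, pandas 2.3.3 and numpy 2.4.6, figures were drawn with matplotlib 3.10.9, and the assignment was tested on simulated regions. The strongest promoter region of a gene is that of highest mean signal, and signal per kb divides it by its width. Percentiles and medians are descriptions.

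All 10 genes were named with their strongest promoter region, as were the strongest distal region of each gene, the 5 strongest and 3 weakest distal regions and, of the other heterochromatin genes, the 3 highest, the 3 lowest and any with no promoter region. SUV39H1, KDM4B, UHRF1, CAB39L, the markers and the remaining promoter regions were named after their values were seen. The members and lists were chosen with earlier results of these data known. Alternatives were tried for the start site window, transcripts, distal limit, minimum signal, scale and word window.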

Additional observations from a re-analysis of the deposited data

How the results depend on the processing

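Of 21 alternatives to the assignment, scale and word search, 19 gave a value within 1.5 times the main one. At that limit, canonical transcripts alone gave 12 promoter regions in place of 18. When regions under a mean signal of 50 were left out, the distal regions of the 10 genes fell from 21 to 12. With the whole promoter region searched in place of its middle, matches of words to genes rose from 9 to 29, as the windows are longer. From 250 bases before to 50 after the coding start site nearest to the middle, there were 10 matches, but in part at other genes. The E-box was then in SETDB1 and EHMT2 and not in CBX5, CBX5 held the NRF1 word, and the E2F word was in 0. The total of matches thus held, but which gene held which word depended on the window. Not among the 21 was the planned comparison of all 18 promoter regions with all promoter regions. It went the other way, with a median mean signal of 443 against 506, while by the strongest region of each gene the medians were 1541 and 840. Whether the 10 genes stood above or below the median thus depended on which of their regions were taken. The searches of distal regions and for repeats, the word shares over strongest promoter regions, the scaling by chromosome and the run without EHMT1 were chosen after seeing the data. No paired analysis was possible because single libraries have no values in the table. For the same reason the comparison of the senescent and non-senescent groups, with its other normalization, count filter and leave-one-out runs, was not run. The depth of the libraries is unknown.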
